A study of Rattus norvegicus with 28 samples.

Results

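The genes described here make, load and receive GABA, the main inhibitory transmitter of the brain: Gad1 and Gad2, which encode the enzymes that make GABA, Slc32a1, which encodes the transporter that loads it into vesicles, and Gabra2, Gabra5 and Gabrd, which encode subunits of the GABA-A receptor. They were found by matching the accession of each non-control probe of the rat gene expression array to a rat gene symbol, and all 6 were on the array, among 15637 genes with a symbol. Each had 1 probe that was used, and that probe was above background on 14 of 14 arrays and saturated on none of them. A further probe of Gad1 was above background on 0 arrays and was not used.

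The RNA came from the whole hippocampus of adult male Sprague-Dawley rats, 24 hours after surgery, with 1 array per rat. Sham rats (n = 2) had the surgery without the injury, and all other rats had a severe parasagittal fluid percussion injury, a pulse of fluid against the exposed dura that models traumatic brain injury (TBI). TBI rats (n = 3) had no antidepressant, and the remaining groups (n = 3 each) had the injury and then, 1 hour later, imipramine (a tricyclic antidepressant), Prozac (fluoxetine) or Zoloft (sertraline), the last 2 being selective serotonin reuptake inhibitors. The comparisons ask what injury did to these genes by 24 hours and whether a single antidepressant given after injury left them at a different level. The tissue held every cell type of the hippocampus, so fewer cells of a type and less RNA per cell cannot be told apart.

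Levels are given as log2 of a probe's signal divided by its array's 75th percentile, taken among probes that cleared background, so that 0 is the level of that percentile. They compare rats for 1 probe, not 1 gene with another. A difference is called where the adjusted p from limma, a linear model fitted to 17322 probes at once, was under 0.05. The 2 Sham arrays lay on a slide of their own that was scanned on another day than the rest, so slide and injury cannot be told apart in any comparison with Sham. The 3 TBI arrays shared a slide with 1 Prozac array, and the other 8 drug arrays shared the remaining slide. Imipramine and Zoloft thus shared no slide with TBI, and their differences from TBI can be separated from slide only through the Prozac arrays. The arrays had 14676 to 18196 probes above background, with the fewest in TBI replicate 1, and correlated with each other at r between 0.973 and 0.994. All 8 of 8 injury response markers were called higher in TBI than in Sham, with a median log2 difference of 4.92. The markers of choroid plexus, a tissue next to the hippocampus, ranged in summed log2 level from -1.96 to 6.72 and varied between rats of the same group.

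GABA is made from glutamate by glutamate decarboxylase, which exists as 2 enzymes from separate genes. In the hippocampus it is released by interneurons, a minority of the neurons, onto the glutamatergic pyramidal cells and granule cells that carry most of the receptors. GABA-A receptors are chloride channels of 5 subunits, and the alpha and delta subunits set where on the cell a receptor sits and whether it answers brief synaptic release or the low GABA level between synapses.

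The 250 bases before the start of transcription are shown for Gad1 and Slc32a1, 1 of the 2 pairs of genes whose levels correlated from rat to rat (the other is Gabra2 and Gabra5), and for the 2 receptor subunits with called differences from Sham (Gabra5 and Gabrd). The sequences are RefSeq's for the rat build GRCr8, 5′ to 3′ on the gene's own strand, and 5 of the 6 genes, all but Gabra2, had an entry. Gad1 lies on the plus strand (chr3:75777202-75777451), as does Slc32a1 (chr3:167686995-167687244), while Gabra5 (chr1:117516607-117516856) and Gabrd (chr5:171252710-171252959) lie on the minus strand. Capitals mark the letters TATAAA (bound by the TATA-binding protein), GGGCGG (the GC box of Sp1 and its relatives) and TGACG (the core of sites for CREB), searched on both strands.
Gad1: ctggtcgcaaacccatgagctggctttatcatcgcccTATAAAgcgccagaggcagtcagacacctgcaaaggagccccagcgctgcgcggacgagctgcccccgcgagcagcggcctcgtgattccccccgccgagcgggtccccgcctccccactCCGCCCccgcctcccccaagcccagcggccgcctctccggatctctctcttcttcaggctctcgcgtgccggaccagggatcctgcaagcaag
Slc32a1: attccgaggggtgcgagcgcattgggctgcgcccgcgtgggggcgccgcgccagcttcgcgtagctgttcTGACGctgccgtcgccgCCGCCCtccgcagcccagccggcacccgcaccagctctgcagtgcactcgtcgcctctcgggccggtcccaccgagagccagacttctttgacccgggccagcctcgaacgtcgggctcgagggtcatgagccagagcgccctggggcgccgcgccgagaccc
Gabra5: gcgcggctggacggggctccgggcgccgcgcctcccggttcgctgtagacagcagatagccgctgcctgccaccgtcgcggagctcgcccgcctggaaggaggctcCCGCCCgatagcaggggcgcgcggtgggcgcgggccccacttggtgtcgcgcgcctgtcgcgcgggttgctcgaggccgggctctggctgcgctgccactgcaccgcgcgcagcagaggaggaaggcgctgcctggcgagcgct
Gabrd: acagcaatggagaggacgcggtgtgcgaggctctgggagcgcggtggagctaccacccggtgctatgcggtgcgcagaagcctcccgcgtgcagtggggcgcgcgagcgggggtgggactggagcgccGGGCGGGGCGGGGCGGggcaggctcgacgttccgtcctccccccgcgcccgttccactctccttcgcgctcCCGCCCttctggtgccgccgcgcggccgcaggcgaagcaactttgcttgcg
The GC box was the letters these 4 promoters had in common, with 1 match in Gad1, Slc32a1 and Gabra5 and 4 in Gabrd, of which 3 lie so close that they run together as 1 block of capitals. It stood in 30.5% of 33469 promoters of the same length. TATAAA was found in Gad1 alone of the 5 (12.9% of all promoters) and TGACG in Slc32a1 alone (18.2%). TAATTA, the core that many homeobox factors of interneurons bind, was in none of the 5 (4.86% of all promoters). The promoter of Gad2 held none of the 4 motifs. The GC content of the 5 windows ran from 62.0% in Gad2 to 76.4% in Gabra5, against a median of 51.2% over all promoters. A match is a run of letters, not a site shown to be used.

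**Figure D1:**
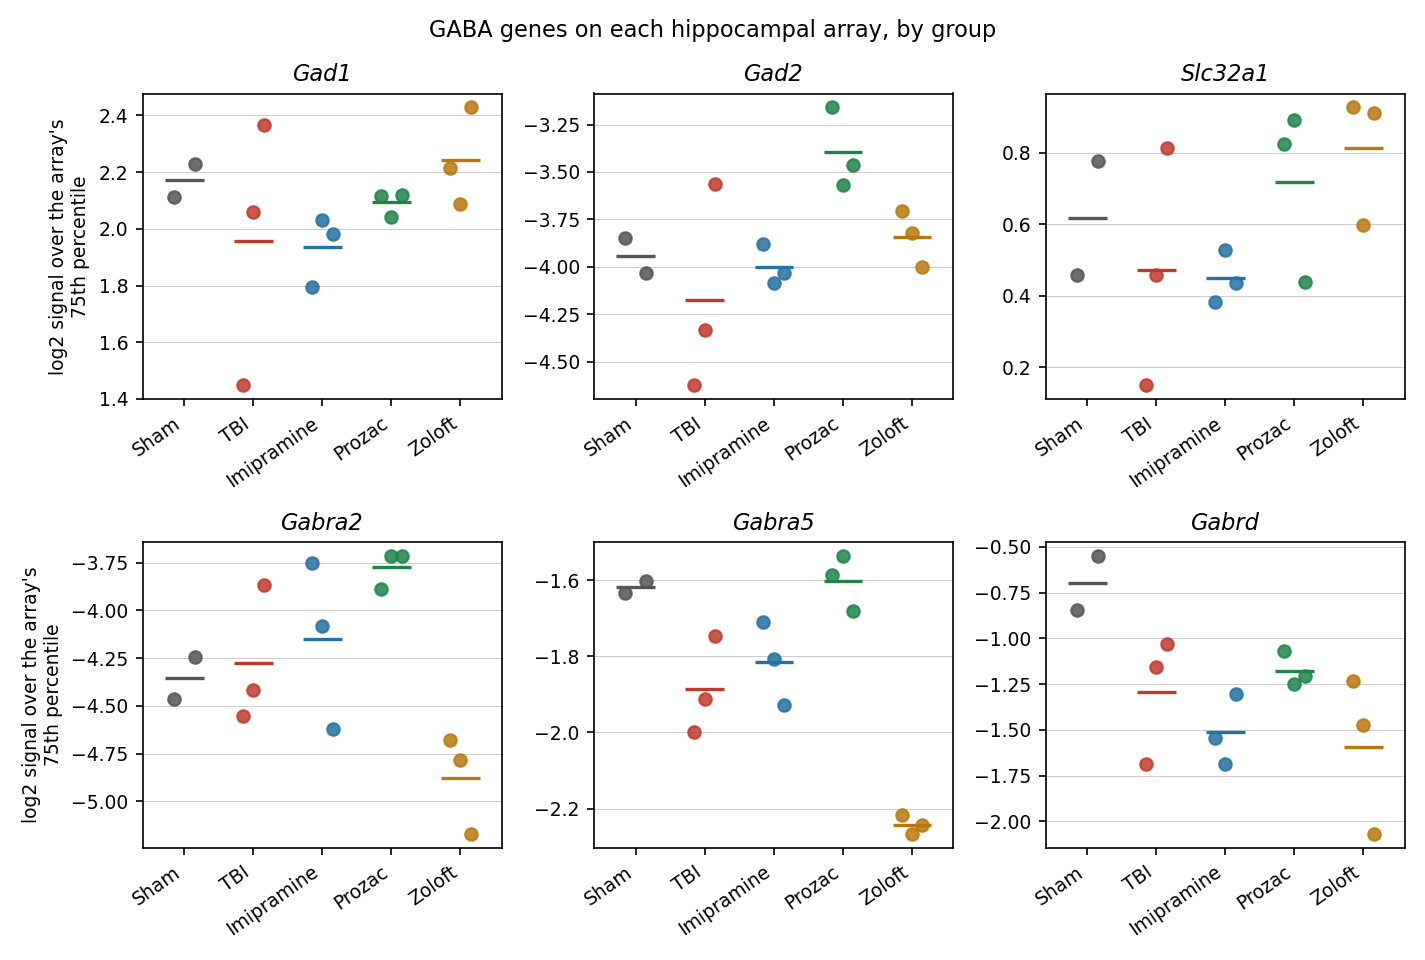
Each point is 1 rat's array and each bar a group mean, with the log2 signal over the array's 75th percentile on the vertical axis and the 5 groups on the horizontal axis (Sham 2 rats, the others 3). Gabra5 in the 3 Zoloft rats sits between -2.27 and -2.22, below every other array, and Gabrd is highest in the 2 Sham rats.

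Gad1 encodes the larger decarboxylase, which is found through the whole cell and makes most of the brain's GABA. Its log2 level was 2.11 and 2.23 in the Sham rats, 1.45, 2.06 and 2.37 in the TBI rats, 1.80, 2.03 and 1.98 with imipramine, 2.12, 2.04 and 2.12 with Prozac, and 2.22, 2.09 and 2.43 with Zoloft. One TBI rat stood below all others, another TBI rat stood above both Sham rats, and only the imipramine rats lay wholly below Sham. The TBI mean (1.96 ± 0.47, SD, n = 3) was 0.21 below the Sham mean (SE 0.22, limma adjusted p = 0.546), and without the low TBI rat the difference was 0.04 the other way. No comparison between groups was called for Gad1, but under other scalings the difference between imipramine and Sham was: from -0.24 (adjusted p = 0.463) it moved to -0.43 with quantile normalization (adjusted p = 0.049988), to -0.48 with the percentile taken over all probes (adjusted p = 0.0404) and to -0.48 in the series table (adjusted p = 0.0398). By mean level the order was Zoloft (2.24), Sham (2.17), Prozac (2.09), TBI (1.96) and imipramine (1.94), and no neighbours in it differed beyond their spread.

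Gad2 encodes the smaller decarboxylase, which is concentrated at nerve endings. The log2 level stood at -3.85 and -4.03 in Sham, -4.63, -4.33 and -3.56 in TBI, -3.88, -4.09 and -4.03 with imipramine, -3.16, -3.57 and -3.46 with Prozac, and -3.71, -3.82 and -4.00 with Zoloft. All 3 Prozac rats were above both Sham rats and above every rat given another drug, while 1 of the TBI rats reached the level of the lowest Prozac rat. Prozac was 0.78 above TBI (SE 0.22, 1.71-fold, unadjusted p = 0.00464 by limma), which did not pass the adjustment over all probes (adjusted p = 0.34), and 0.54 above Sham (SE 0.25, adjusted p = 0.169). With another background correction, normexp, these differences were 0.37 (adjusted p = 0.761) and 0.29 (adjusted p = 0.331). The order of means ran from Prozac (-3.40) through Zoloft (-3.84), Sham (-3.94) and imipramine (-4.00) to TBI (-4.17), and of these neighbours only Prozac and Zoloft did not overlap.

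Slc32a1 encodes the vesicular transporter for GABA and glycine, which marks inhibitory nerve endings. Its log2 level was 0.46 and 0.78 in Sham, 0.15, 0.46 and 0.81 in TBI, 0.38, 0.53 and 0.44 with imipramine, 0.82, 0.89 and 0.44 with Prozac, and 0.93, 0.60 and 0.91 with Zoloft. The groups overlapped throughout, except that every Zoloft rat was above every imipramine rat. The TBI mean (0.47 ± 0.33, SD, n = 3) was 0.14 below the Sham mean (SE 0.21, limma adjusted p = 0.685). Zoloft (0.81) and Prozac (0.72) had the highest means, then Sham (0.62), TBI (0.47) and imipramine (0.45), and no comparison was called. For the 3 genes that make and load GABA the 95% intervals of the TBI minus Sham difference ran from -0.69 to 0.26 for Gad1, from -0.78 to 0.31 for Gad2 and from -0.59 to 0.30 for Slc32a1. With these numbers of rats, a fall or a smaller rise within these bounds was not excluded.

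Gabra2 encodes the alpha2 subunit of receptors at synapses, among them those on the first stretch of the axon of pyramidal cells. On the 14 arrays its log2 level was -4.46 and -4.24 in Sham, -4.55, -4.42 and -3.87 in TBI, -3.75, -4.08 and -4.62 with imipramine, -3.89, -3.71 and -3.71 with Prozac, and -4.68, -4.78 and -5.17 with Zoloft. The 3 Zoloft rats were the lowest of all 14 and the Prozac rats were all above both Sham rats. Prozac was 1.105 above Zoloft (SE 0.23, 2.15-fold, limma adjusted p = 0.0292), a called difference. The probe was dim, with a mean level at percentile 22.7 of the kept probes. Its processed signal ran from 41.0 to 148, and the 3 Zoloft arrays had the lowest signals (56.5, 48.0 and 41.0). With normexp the difference between Prozac and Zoloft was 0.49 (adjusted p = 0.126), which was not called. Imipramine was 0.73 above Zoloft (SE 0.23, adjusted p = 0.081) and Zoloft 0.60 below TBI (adjusted p = 0.228), without overlap in either case but short of the threshold. With normexp these differences were 0.24 (adjusted p = 0.407) and -0.15 (adjusted p = 0.657). Without imipramine replicate 3 the first was called at 0.96 (adjusted p = 0.0291), and without TBI replicate 3 the second was -0.39 (adjusted p = 0.422). TBI was 0.08 above Sham (SE 0.26, adjusted p = 0.876). The order of means was Prozac (-3.77), imipramine (-4.15), TBI (-4.28), Sham (-4.35) and Zoloft (-4.88), and Sham and Zoloft were its only neighbours that did not overlap.

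Gabra5 encodes the alpha5 subunit, which is unusually abundant in the hippocampus and sits mainly outside synapses on pyramidal cells, where it carries a steady inhibition. Its log2 level was -1.63 and -1.60 in Sham, -2.0, -1.91 and -1.75 in TBI, -1.71, -1.81 and -1.93 with imipramine, -1.59, -1.54 and -1.68 with Prozac, and -2.22, -2.27 and -2.24 with Zoloft. These were the tightest replicates of the 6 genes, with a pooled within-group SD of 0.0878 against 0.229 to 0.303 for the others. Zoloft rats were the lowest of all, TBI and imipramine rats lay between, and Sham and Prozac rats were the highest. Zoloft was 0.63 below Sham (SE 0.12, 1.54-fold, limma adjusted p = 0.0125), a call that was lost without either Sham rat (adjusted p = 0.0834 and 0.0857) though its size stayed between 0.61 and 0.64. Zoloft was also below Prozac by 0.64 (SE 0.11, 1.56-fold, adjusted p = 0.0176) and below imipramine by 0.43 (SE 0.11, adjusted p = 0.0453). TBI was 0.27 below Sham without overlap (SE 0.12, adjusted p = 0.158), Prozac was 0.28 above TBI without overlap (SE 0.11, adjusted p = 0.428) and Zoloft 0.36 below TBI without overlap (SE 0.11, adjusted p = 0.13), none of them called. In the order of means, Prozac (-1.60), Sham (-1.62), imipramine (-1.82), TBI (-1.89) and Zoloft (-2.24), the steps from Sham to imipramine and from TBI to Zoloft were free of overlap and no step was called.

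Gabrd encodes the delta subunit, which is found outside synapses, most of all on dentate granule cells, and makes receptors that respond to low GABA and to neurosteroids. The log2 level stood at -0.84 and -0.55 in Sham, -1.69, -1.16 and -1.03 in TBI, -1.54, -1.69 and -1.31 with imipramine, -1.07, -1.25 and -1.21 with Prozac, and -1.23, -1.47 and -2.07 with Zoloft. Both Sham rats were above all 12 injured rats. Imipramine was 0.82 below Sham (SE 0.25, 1.76-fold, limma adjusted p = 0.0326), the 1 called difference of this gene. Zoloft was 0.90 below Sham (SE 0.25, 1.86-fold, adjusted p = 0.0546), TBI 0.60 below (SE 0.25, 1.51-fold, adjusted p = 0.124) and Prozac 0.48 below (SE 0.25, adjusted p = 0.216), or 0.29 below with normexp (adjusted p = 0.424). The imipramine call held in 1 of the 5 refits that each left out a rat, that without imipramine replicate 3, with adjusted p between 0.0326 and 0.207 and log2 differences from -0.96 to -0.67. Means fell in the order Sham (-0.70), Prozac (-1.18), TBI (-1.29), imipramine (-1.51) and Zoloft (-1.59), with overlap between all neighbours but Sham and Prozac. The summed log2 level of 3 granule cell markers was 1.54 and 2.23 in the Sham rats and 0.42 to 1.36 in the injured rats, and their part in the Gabrd result was not tested.

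**Figure D2:**
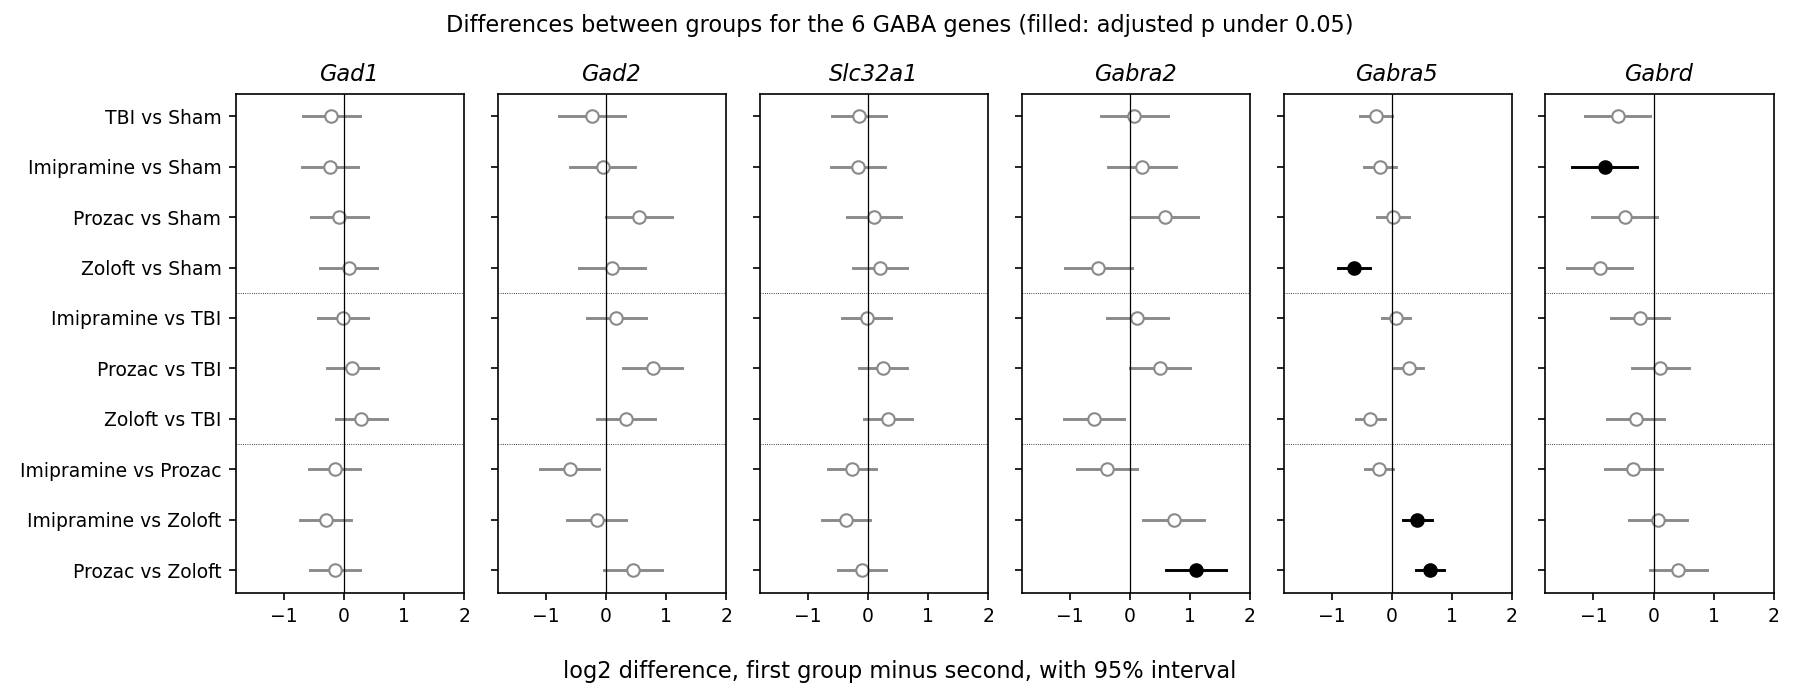
Each panel is 1 gene, with the log2 difference between 2 groups (first minus second) on the horizontal axis, its 95% interval as a line and the 10 comparisons down the side. Filled points are called, and they are Gabrd between imipramine and Sham, Gabra5 between Zoloft and Sham, Gabra5 between imipramine and Zoloft, and Gabra2 and Gabra5 between Prozac and Zoloft.

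Between TBI and Sham, then, 0 of 6 genes were called by limma, while 16.6% of all probes were. At an unadjusted p under 0.05 limma had 2 (Gabra5 and Gabrd) and the methods' t-test with its fold limit had 0. The median log2 difference of the 6 genes was -0.22 beside 0.0015 over all probes, 5 of the 6 differences were negative, and Gabra5 and Gabrd did not overlap, as was so for 42.3% of probes. TBI replicate 1 was the lowest and TBI replicate 3 the highest of the 3 TBI rats for each of the 6 genes, and the first of these arrays also had the highest 75th percentile of signal (2228, against 1302 to 2053 on the others). Without it, the TBI minus Sham difference was -0.21 for Gabra5 and -0.40 for Gabrd.

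Against Sham, imipramine had 1 of 6 genes called (Gabrd) where 23.4% of probes were called, Prozac had 0 of 6 (14.9% of probes, with 1 gene at an unadjusted p under 0.05, 2 by the methods' t-test with its fold limit and 0 by that test after adjustment) and Zoloft had 1 of 6 (Gabra5, 5.95% of probes). These 3 comparisons and that of TBI use the same 2 Sham rats. In each of the 3, 3 of 6 genes did not overlap with Sham, where 59.6% of probes did not with imipramine, 52.4% with Prozac and 38.3% with Zoloft, and Gabrd was the gene common to all 3. The median of all probes itself differed from Sham by 0.183 with imipramine and by 0.143 with Prozac, and by 0.0025 with Zoloft. Relative to that shift the Gabrd difference between imipramine and Sham was -0.999, and values scaled by other means gave -1.04 with quantile normalization (adjusted p = 0.00689) and -1.06 with the percentile taken over all probes (adjusted p = 0.00621). Under the same alternatives Gad1, with the values given above, and Gabra5 were also called lower with imipramine than in Sham (-0.45, adjusted p = 0.00701, and -0.44, adjusted p = 0.00834), and Gabrd lower with Zoloft (-0.91, adjusted p = 0.0279, and -0.94, adjusted p = 0.0257).

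Between a drug and TBI no gene of the 6 was called with any of the 3 drugs, whereas 2.85% of probes were with imipramine, 0.00577% with Prozac and 1.38% with Zoloft. At an unadjusted p under 0.05 the counts by limma were 0, 3 (Gad2, Gabra2 and Gabra5, each higher with Prozac) and 2 (Gabra2 and Gabra5, each lower with Zoloft), and by the methods' t-test with its fold limit 0, 1 and 1. All 6 differences between Prozac and TBI were positive, with a median of 0.26 beside a median of 0.15 over all probes, and only Gabra5 did not overlap (15.1% of probes did not). With Zoloft, Gabra2 and Gabra5 did not overlap with TBI (15.3% of probes did not), and with imipramine 0 of 6 were free of overlap (25.8% of probes). All imipramine and Zoloft arrays lay on another slide than the TBI arrays. With the slide as a fixed term the Zoloft minus TBI difference was -0.77 for Gabra2 and -0.34 for Gabra5 (limma adjusted p = 0.998 for each).

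Between drugs, imipramine and Prozac differed in 0 of 6 genes (0.00577% of probes, with 1 gene, Gad2, at an unadjusted p under 0.05 and 1 by the methods' t-test with its fold limit), imipramine and Zoloft in 1 (5.29% of probes), and Prozac and Zoloft in 2 (3.69% of probes). The groups did not overlap for 4 genes between imipramine and Prozac (17.3% of probes), for 4 between imipramine and Zoloft (29.8%) and for 3 between Prozac and Zoloft (25.6%). Over the 3 drugs at once the moderated F test called 2 of 6, Gabra2 (adjusted p = 0.0479) and Gabra5 (adjusted p = 0.0247), where 3.18% of probes were called. The median of all probes was 0.179 higher with imipramine than with Zoloft and 0.113 higher with Prozac than with Zoloft, and relative to these shifts the Gabra5 differences were 0.25 and 0.53 and the Gabra2 difference between Prozac and Zoloft was 0.99. Scaling mattered for the first of them: with quantile normalization Gabra5 was 0.20 higher with imipramine than with Zoloft (adjusted p = 0.216), while the Prozac minus Zoloft differences stayed called at 0.48 for Gabra5 (adjusted p = 0.0307) and 0.95 for Gabra2 (adjusted p = 0.042). With normexp none of the 3 was called: Gabra2 differed by 0.49 between Prozac and Zoloft (adjusted p = 0.126), and Gabra5 by 0.53 (adjusted p = 0.0576) and, between imipramine and Zoloft, by 0.33 (adjusted p = 0.174). Within the slide that held 8 drug arrays, the Prozac minus Zoloft difference was 0.63 for Gabra5 (adjusted p = 0.117) and 1.16 for Gabra2 (adjusted p = 0.123). Of 6 refits that each left out a rat, the Prozac and Zoloft call was lost in 4 for Gabra5 (all but those without Zoloft replicate 1 or 3) and in 5 for Gabra2 (all but that without Zoloft replicate 1), with log2 differences of 0.61 to 0.68 and 0.96 to 1.205. The imipramine and Zoloft call of Gabra5 was lost in 5 of 6 (all but that without imipramine replicate 3), at 0.37 to 0.48.

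Other measures were set beside the low Gabra2 and Gabra5 of the Zoloft rats. Neurod6, a transcription factor of glutamatergic neurons, had log2 levels of 0.69, 0.80 and 0.63 with Zoloft against 1.32, 1.46 and 1.30 with Prozac, a difference between Prozac and Zoloft of 0.65 (limma adjusted p = 0.0178), and was the 1 called gene of the 5 glutamatergic markers measured. The summed log2 level of those 5 markers was 3.36 to 3.91 with Zoloft and 3.88 to 4.17 with Prozac. That of the 10 interneuron markers was 3.16 to 3.47 with Zoloft and 3.05 to 3.30 with Prozac. The glutamatergic and interneuron sums overlapped between the 2 groups. The sum of 5 pyramidal cell markers did not: it was 1.98 to 2.29 with Zoloft and 2.42 to 2.47 with Prozac. All 5 of these markers were lower with Zoloft than with Prozac, and 0 of them were called. With imipramine their sum was 2.13 to 2.19, within the Zoloft range. The signal at the 75th percentile was 1323 to 1475 on the Zoloft arrays and 1818 to 1946 on the Prozac arrays. On the 2 Sham arrays, with Gabra5 at -1.63 and -1.60, it was 1404 and 1302. The part of these measures in the Gabra2 and Gabra5 results was not tested.

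The rest of the GABA pathway was read from 6 lists with 35 measured genes. In TBI against Sham, 9 of the 35 were called lower (8.32% of all probes were) and 0 higher, 24 had a negative difference, and the median was -0.35. Of these 9 calls, those of Gabrq and Cnr1 held in 5 of 5 refits that each left out a rat, and the other 7 were lost in at least 1. Reuptake and breakdown had 0 of 4 called, with a list median of -0.11. The GABA-B receptor list had 0 of 4 called in TBI, and Gabbr1, the subunit that binds GABA, was 0.49 below Sham (SE 0.16, limma adjusted p = 0.0589), with a list median of -0.36. With imipramine Gabbr1 was called 0.52 below Sham (SE 0.16, adjusted p = 0.0373), a call lost in 5 of 5 refits that each left out a rat (adjusted p from 0.0537 to 0.26) and with normexp (-0.39, adjusted p = 0.132), and a further probe of the same gene differed by -0.24 (adjusted p = 0.656).

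Of 7 other GABA-A subunits measured, 1 was called, Gabrq, which encodes the rarer theta subunit. Its log2 level was -1.37 and -1.20 in Sham and -2.88, -2.50 and -2.48 in TBI, a fall of 1.34 (SE 0.17, adjusted p = 5.9e-04). It was 0.98 below Sham with imipramine (adjusted p = 0.00239), 0.96 with Prozac (adjusted p = 0.00492) and 0.66 with Zoloft (adjusted p = 0.0468), and 0.68 higher with Zoloft than in TBI, short of the threshold (adjusted p = 0.055). The imipramine and Prozac calls against Sham held in 5 of 5 refits that each left out a rat. That of Zoloft was lost in 4 of 5, all but the one without Zoloft replicate 3 (adjusted p from 0.0228 to 0.263), with normexp (adjusted p = 0.0527) and with no filter on dim probes (adjusted p = 0.124). Every injured rat was below both Sham rats.

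At the inhibitory postsynapse 4 of 8 genes were called lower in TBI than in Sham (8.32% of all probes were), and 2 of the 8 had a positive difference. Nlgn2, the neuroligin of inhibitory synapses, was 0.68 lower (SE 0.16, adjusted p = 0.0123), Iqsec3, an exchange factor that binds gephyrin, was 0.78 lower (SE 0.20, adjusted p = 0.019), Slitrk3, an adhesion protein, was 0.56 lower (SE 0.16, adjusted p = 0.0319), and Shisa7, a partner of GABA-A receptors, was 0.55 lower (SE 0.15, adjusted p = 0.0226). Nlgn2 was the 1 gene of the 35 called between a drug and TBI. Of all probes, 2.85% were called with imipramine, 0.00577% with Prozac and 1.38% with Zoloft. Nlgn2 was 0.76 higher with imipramine (SE 0.14, adjusted p = 0.0178) and 0.68 higher with Zoloft (SE 0.14, adjusted p = 0.0392), and with Prozac 0.41 higher (adjusted p = 0.376). Of 6 refits that each left out a rat, the Zoloft call was lost in 6 (0.55 to 0.77, adjusted p from 0.0588 to 0.139) and the imipramine call in 4, those without TBI replicate 1 or any 1 imipramine rat (adjusted p up to 0.0756). The imipramine call was also lost with quantile normalization (0.58, adjusted p = 0.0644) and with the percentile over all probes (0.54, adjusted p = 0.0737), and the Zoloft call with normexp (0.57, adjusted p = 0.0636). A further Nlgn2 probe differed by -0.08 between TBI and Sham (adjusted p = 0.867) and by 0.25 to 0.34 between the drugs and TBI, none called. For the probe used, with the slide as a fixed term, the imipramine and Zoloft differences were 0.51 (adjusted p = 0.822) and 0.43 (adjusted p = 0.998). For Shisa7 a further probe was also called lower (-0.79, adjusted p = 0.0359) and another was not (-0.23, adjusted p = 0.489). Slc12a5, the neuronal chloride exporter on which inhibition by GABA depends, was 0.53 lower in TBI (SE 0.16, adjusted p = 0.0464) and 0.58 lower with imipramine (SE 0.16, adjusted p = 0.0245) than in Sham, calls that each held in 1 of 5 refits that left out a rat, that without replicate 3 of the injured group.

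**Figure D3:**
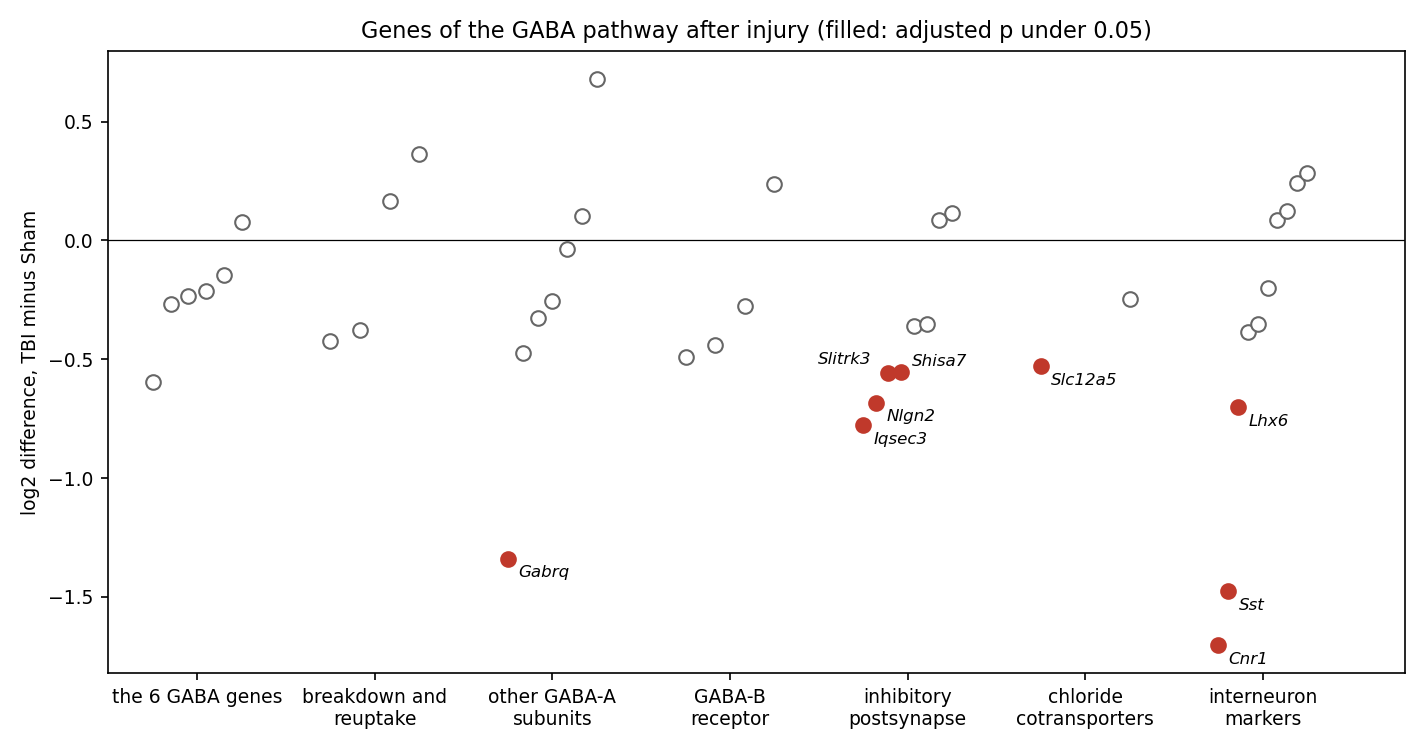
Each point is 1 gene's log2 difference between TBI and Sham, by list, with called genes filled and named. None of the 6 GABA genes is filled, and all 9 filled genes of the other lists lie below 0.

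Interneuron markers had 3 of 10 called, each lower in TBI, where 8.32% of all probes were called lower. The other 7 were not called, and 4 of the 10 had a positive difference. Sst, the peptide somatostatin, had log2 levels of 0.19 and -0.08 in Sham and -2.13, -1.11 and -1.02 in TBI (difference -1.47, SE 0.32, adjusted p = 0.00847). Lhx6, a transcription factor of interneurons that carry somatostatin or parvalbumin, was 0.70 lower (SE 0.18, adjusted p = 0.0202) and 0.81 lower with imipramine (adjusted p = 0.00752), a call lost without Sham replicate 2 (adjusted p = 0.0571). Cnr1, the cannabinoid receptor found on some interneurons and also on glutamatergic neurons, was 1.70 lower (SE 0.24, adjusted p = 8.7e-04) and 1.24 to 1.38 lower with the 3 drugs, but its further probe was called in none of these comparisons: it differed from Sham by -0.23 in TBI (adjusted p = 0.508), by -0.51 with imipramine (adjusted p = 0.108), by 0.13 with Prozac (adjusted p = 0.737) and by -0.50 with Zoloft (adjusted p = 0.2). The Cnr1 call with Prozac was lost without Sham replicate 1 (adjusted p = 0.056) and that with Zoloft without either Sham rat (adjusted p = 0.0926 and 0.0604). Sst with Zoloft lay at -0.53, -0.39 and -0.03, above each TBI rat, a difference of 1.103 (SE 0.28, adjusted p = 0.078). The summed log2 level of the 10 markers was 3.15 and 3.27 in Sham and 2.56, 3.11 and 3.33 in TBI. The TBI rat with the lowest sum, replicate 1, was also the one lowest in Gad1, Gad2 and Slc32a1. It was not low in interneuron markers alone. Among TBI rats it also had the lowest sum of astrocyte markers (4.34, against 4.88 and 5.03). The same held for oligodendrocyte markers (5.55, against 6.18 and 6.28). Of the marker lists, only injury response did not have its lowest TBI sum in this rat (5.05, against 6.00 and 4.82). The part of these sums in the values of Gad1, Gad2 and Slc32a1 was not tested.

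**Figure D4:**
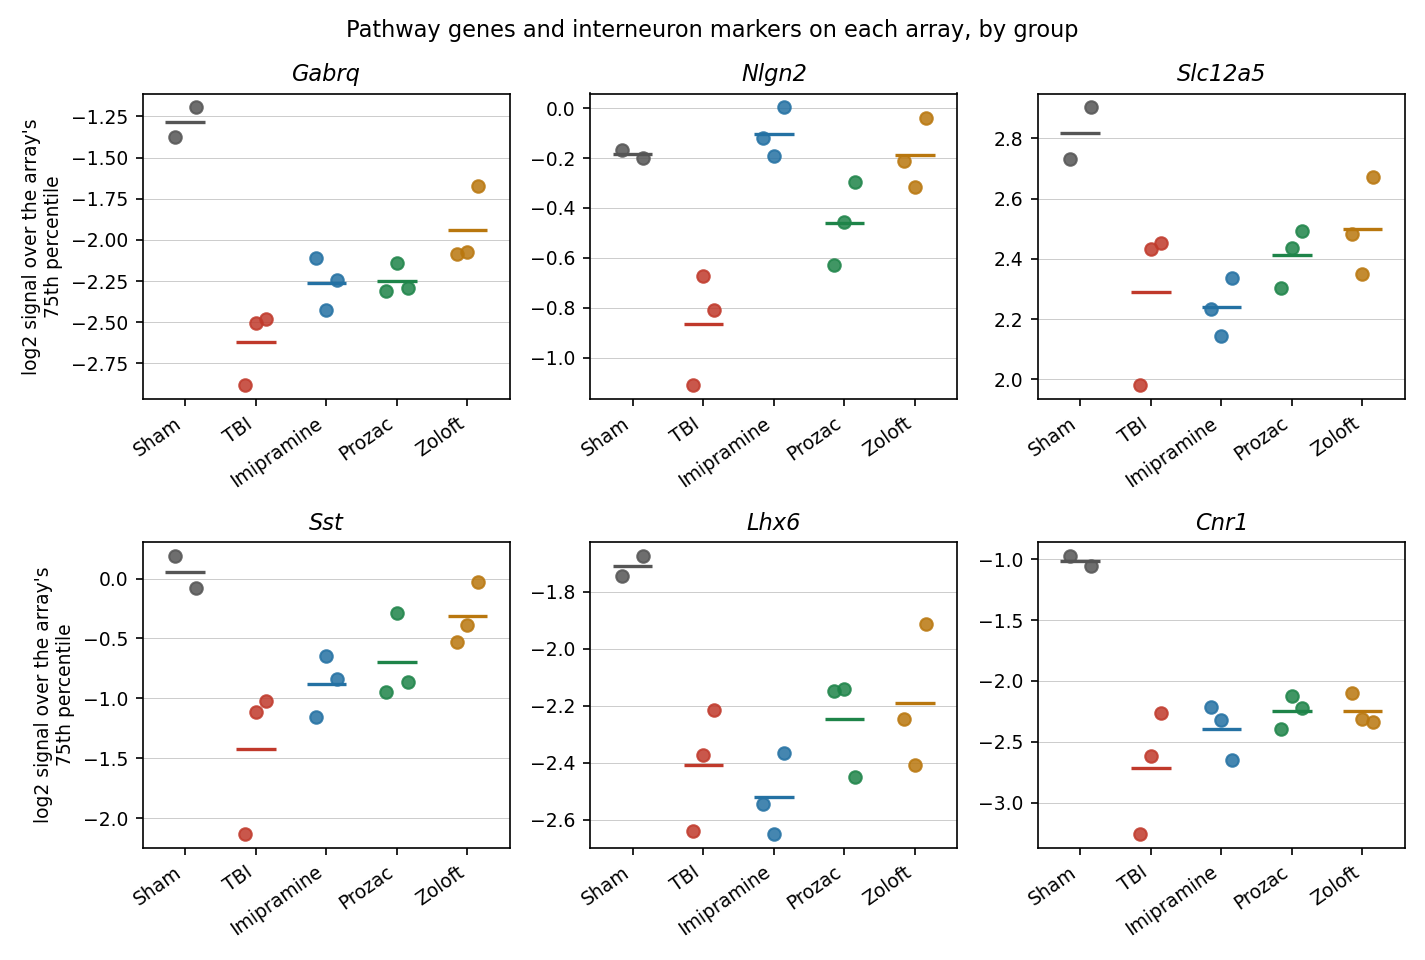
Points are single arrays and bars group means of the log2 signal over the array's 75th percentile, for 6 genes of the pathway lists in the 5 groups. Gabrq and Cnr1 of all injured rats lie below both Sham rats, and Nlgn2 with imipramine and Zoloft lies at or near the Sham level.

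From rat to rat, 2 of the 15 pairs of the 6 genes varied together over the 12 injured arrays (permutation tests, 100000 resamples, adjusted over 15 pairs). Gad1 and Slc32a1, both of them genes of inhibitory neurons, had r = 0.81 (permutation adjusted p = 0.0042) and rho = 0.76 (permutation adjusted p = 0.0463). Without the 2 arrays farthest from the median Gad1 level r was 0.64, and within the slide of 8 drug arrays it was 0.72. Without Zoloft, over 9 arrays, r was 0.76 (exact permutation p = 0.015) and rho 0.65 (exact permutation p = 0.0666). With normexp r was 0.80 (permutation adjusted p = 0.0213) and rho 0.68 (permutation adjusted p = 0.0943), and r was 0.37 without the 2 farthest arrays. When each value was taken as its deviation from the group mean r was 0.75, but 0.35 without the 2 farthest arrays, so within groups the relation rested on those arrays.

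Gabra2 and Gabra5 had r = 0.93 (permutation adjusted p = 0.0006) and rho = 0.94 (permutation adjusted p = 0.0003). Without the 2 farthest arrays r was 0.91, and within the slide of 8 arrays it was 0.94. The 3 Zoloft rats formed a cluster of their own, and over the 9 other injured rats r was 0.90 (exact permutation p = 0.00171). Deviations from the group mean gave r = 0.80 (permutation adjusted p = 0.032) and rho = 0.77 (permutation adjusted p = 0.0504), and r was 0.63 without the 2 farthest arrays. Deviations sum to 0 within each group, which the permutation did not take into account, so these p may be too small. The points of a pair share an array and its scaling. Gad1 and Gad2, which encode the enzymes of the same step, had r = 0.55 (permutation adjusted p = 0.173) and 0.03 within the slide of 8 arrays.

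**Figure D5:**
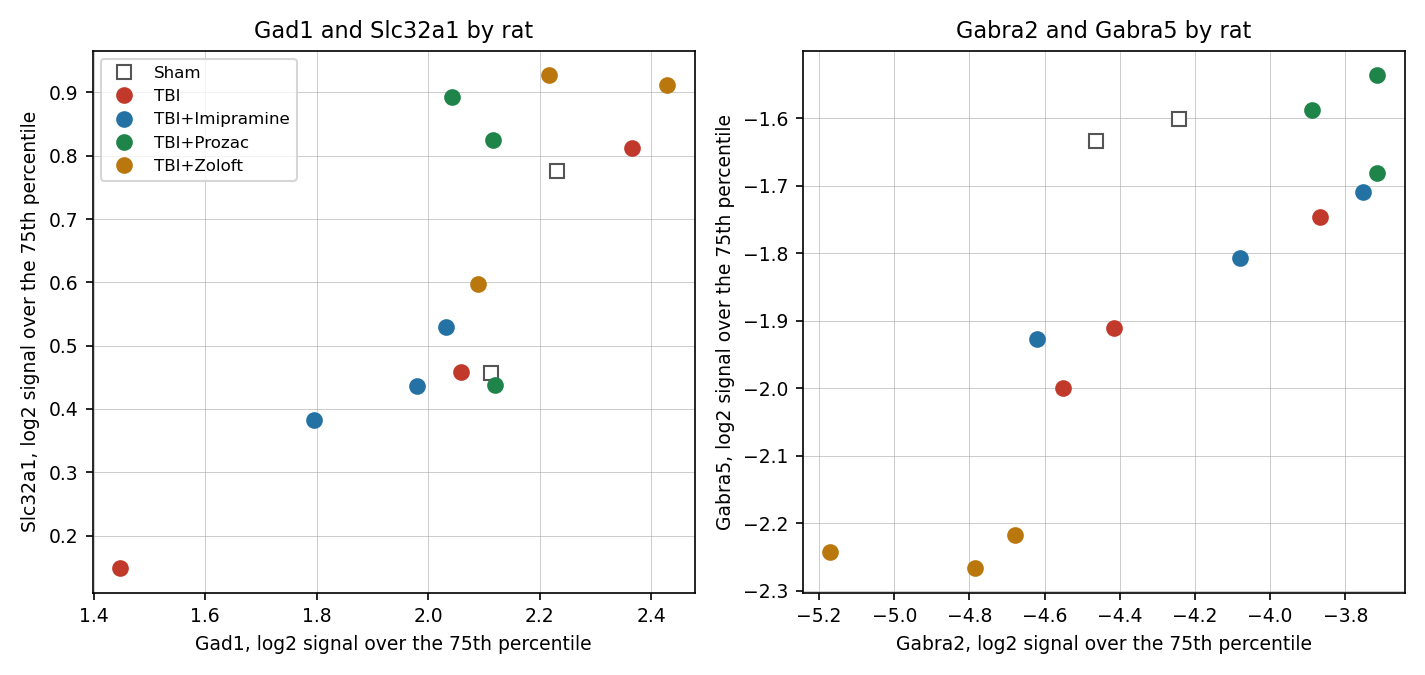
Each point is 1 rat, with the log2 levels of Gad1 and Slc32a1 on the axes of the left panel and of Gabra2 and Gabra5 on those of the right. The 12 injured rats give r = 0.81 and r = 0.93, the Sham rats (open squares) were not part of either value, and the 3 Zoloft rats sit apart at the lower left of the right panel.

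The genes whose pattern over the 14 arrays was most like that of each of the 6 were sought among 10203 genes, by Pearson r as a description. They were Xkr6 (r = 0.91), Fam43a (0.90) and Abi2 (0.89) for Gad1, and Mto1 (0.86), Lnx1 (0.85) and Nlgn1 (0.84) for Gad2. For Slc32a1 they were Nap1l5 (0.82), Slc8a1 (0.81) and Ndufa10 (0.81). For Gabra2 they were Tacc2, Myg1 and Mdh1 (each 0.94), for Gabra5 Slc2a6 (0.95), Itsn1 (0.94) and Pclo (0.94), and for Gabrd Cul9 (0.93), Fn3k (0.92) and Cldn10 (0.92). Over the 12 injured arrays alone the 18 values of r ran from 0.79 to 0.97.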

How the data were processed

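Total RNA of 14 hippocampi was labelled with Cy3 and hybridised to 1-colour Agilent rat arrays, 1 per rat. The authors deposited each array's scanner output from Agilent Feature Extraction 11.5.1.1, per the file headers, with a background-subtracted processed intensity and flags per spot, and a series table of processed intensities that they had scaled by 1 constant per array. miRNA arrays were not used here. Spots of a probe were averaged without outlier-flagged spots, divided by the array's 75th percentile of probes above background (over 0.5 of their spots well above it) and put on a log2 scale from the deposited intensities. Kept were the probes (17322 of 30367) that cleared background on all arrays of 1 group or more, and probes were named by accession through RefSeq's GRCr8 gene table.

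One limma 3.58.1 model (R 4.3.3) of the 5 groups gave 10 comparisons, with Benjamini-Hochberg adjustment over all kept probes and a threshold of 0.05, and was tested on simulated data. Replicates are separate rats, and the small number of arrays limits the precision. The 6 genes and the pathway and marker lists were chosen with earlier results of these data known. Named were all 6 genes, every pathway gene called between TBI and Sham or between a drug and TBI (up to 6 per list), the best known gene of a list without a call (some pathway genes are not reported here), and the 3 genes most like each of the 6. A gene with several kept probes was read from the probe with the highest mean level. Alternatives were normexp (offset 50, on median rather than mean spot signals, which the scanner files used here hold), quantile normalization, the percentile over all probes, outlier spots kept, the series table, other filters, the replicate number or the slide as a block, only the groups compared, the methods' t-test (unadjusted p under 0.05 with a fold limit of 1.2, or adjusted), the mean of a gene's probes and leaving out each rat. Those by single slides, and the pairs without Zoloft, were added after the data were seen.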

Additional observations from a re-analysis of the deposited data

Results flagged for a closer look

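A pair of drugs left different levels after the same injury, by a test of the difference itself, for 2 of the 6 genes, where 3.69% of all probes were called between Prozac and Zoloft and 5.29% between imipramine and Zoloft. Gabra2, read from a dim probe, was 1.105 (log2) higher with Prozac than with Zoloft (limma adjusted p = 0.0292), or 0.49 with normexp (adjusted p = 0.126). All 3 Prozac rats were above all 3 Zoloft rats. Gabra5 was 0.64 higher with Prozac than with Zoloft (adjusted p = 0.0176) and 0.43 higher with imipramine than with Zoloft (adjusted p = 0.0453), again without overlap. Of 14 alternatives other than leaving out a rat, the Prozac and Zoloft calls held in 7 for each gene and the imipramine and Zoloft call in 4. Of 6 refits that each left out a rat they held in 1 for Gabra2, in 2 for Gabra5 and in 1 for Gabra5 with imipramine. Groups of 2 or 3 rats were too small for a test of single outlying rats.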

How the results depend on the processing

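Of all 60 differences between groups of the 6 genes, 13 changed sign under at least 1 alternative other than leaving out a rat and 15 on leaving out 1 rat, none of them called and none above 0.215 in size. Among them, Gabra2 in TBI against Sham was -0.13 with normexp, and on leaving out 1 rat the TBI minus Sham differences ran from -0.42 to 0.040 for Gad1, from -0.31 to 0.019 for Slc32a1 and from -0.13 to 0.21 for Gabra2. The number of the 6 genes called moved as follows. Quantile normalization, the percentile over all probes and the series table each gave 3 for imipramine against Sham, 2 for Zoloft against Sham, 1 for Zoloft against TBI (Gabra5), 0 for imipramine against Zoloft and 0 in the F test over the 3 drugs. Normexp, the slide as a fixed term and slide 2 alone each gave 0 for imipramine against Zoloft, 0 for Prozac against Zoloft and 0 in the F test. With no filter on dim probes, which added probes to the adjustment, the counts were 0 for imipramine and for Zoloft against Sham, for both comparisons of a drug with Zoloft and in the F test. Only the groups compared gave 0 for Zoloft against Sham and for both comparisons of a drug with Zoloft, and the methods' t-test after adjustment gave 0 for these and for imipramine against Sham. Unadjusted with its fold limit, that test gave 2 for Prozac against Sham, 1 for Prozac against TBI, 1 for Zoloft against TBI, 1 for imipramine against Prozac and 2 for imipramine against Zoloft. Zoloft against Sham had 2 with only probes above background on all arrays and with the slide as a random block, and the mean of a gene's probes gave 1 in the F test. Deviations from group means gave 4 correlated pairs by r in place of 2, with p that may be too small, as said above. On leaving out 1 rat the counts ran from 0 to 1 for imipramine against Sham and from 0 to 2 for Zoloft against Sham, for both comparisons of a drug with Zoloft and in the F test. The causes of these changes were not tested, beyond the added probes. The replicate block gave 0 for imipramine against Sham, for both comparisons of a drug with Zoloft and in the F test, but the numbers do not pair the rats: 2 of 26 same-numbered pairs correlated above 0.1, and 3 of 14 arrays correlated best with an array of their own number. The probes of the 6 genes were above background on all arrays, and the number of rats, 2 or 3 a group, limits the precision.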
